A study of Homo sapiens with 5 samples.

Results

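The genes described are 9 enzymes through which carbon enters, leaves and branches from the tricarboxylic acid (TCA) cycle. They are PC, PCK2, GLUD1, GOT1, GOT2, ME1, ME2, IDH1 and IDH2. They were taken by name from the 30631 genes listed for each library, after the Ensembl identifiers were matched to GENCODE 29, and all 9 were found in all 5 libraries and passed the filter on low values. The libraries hold messenger RNA of COV434 cells, which the labels call a tumour line of human ovarian granulosa cells. Control cells gave 2 of them and the other 3 are from cells exposed to 3-nitropropanoic acid (3-NP), an irreversible inhibitor of succinate dehydrogenase, the enzyme that turns succinate into fumarate in the cycle. Neither a dose nor a time nor a culture medium is labelled, no vehicle is named for the controls, and COV434 is a single line. All titles name COV434, while the number in the cell line label goes up by 1 with each library. Whether each library had its own culture is not stated, and p-values therefore reflect only the spread between these libraries, which may be technical.

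Anaplerosis is the refilling of TCA cycle intermediates that are drawn off for synthesis. The main routes are pyruvate carboxylase (PC), which makes oxaloacetate from pyruvate, and glutamine, which is turned into glutamate and then into 2-oxoglutarate by glutamate dehydrogenase (GLUD1) or by aminotransferases (GOT1, GOT2). Carbon leaves again through the malic enzymes (ME1, ME2) and phosphoenolpyruvate carboxykinase (PCK2). The NADP-linked isocitrate dehydrogenases IDH1 and IDH2 join isocitrate and 2-oxoglutarate outside the NAD-linked step of the cycle. In cells that lack succinate dehydrogenase, pyruvate carboxylation is known as a source of oxaloacetate for aspartate. Granulosa cells are known for turning glucose into pyruvate that the oocyte uses.

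Levels are FPKM, that is reads scaled by gene length and by the depth of the library, and so can be set side by side between genes. Depth worked out from the values was 17837764 to 18883140 reads per library, and 3 reads on a gene of 2000 bases came to 0.0794 to 0.0841 FPKM, the limit that a count of 0 leaves for counting error alone. Of the labelled cell type's 15 markers 8 passed the filter, of which 4 fell (FOXL2, INHBB, FST and NR5A1) and 4 were not called, where 25.2% of all genes tested fell. By limma 0 rose, with 1 higher at an unadjusted p under 0.05, and voom called 0 higher, quantile normalization 2 and removal of the length trend 1. The steroidogenic regulator NR5A1 was at 21.9 and 24.9 FPKM in the controls and at 11.4 to 14.1 in 3-NP cells, and the ovarian factor FOXL2 was at 5.50 and 6.90 against 2.33 to 2.71. Among those not called, GATA4 was at 1.5003 and 2.12 FPKM in the controls against 2.46 to 2.81, STAR at 4.22 and 3.60 against 4.72 to 4.91, both higher in every 3-NP library, and AMH at 0.866 and 1.19 against 1.11 to 1.23. INHBA, also not called, had a lower mean in 3-NP cells, at 6.71 and 5.17 FPKM in the controls against 3.97 to 5.17 (limma's adjusted p = 0.185). The follicle-stimulating hormone receptor FSHR and aromatase CYP19A1, also among the 15 markers, were at 0 in both controls and at no more than 0.0169 and 0.0753 FPKM in 3-NP cells. The summed level of 6 fibroblast and stromal markers, most of it from the collagen gene COL1A1, was 868 and 870 FPKM in the controls and 162 to 322 in 3-NP cells. Of the 6, COL1A1 and COL1A2 were called lower, and PDGFRA, under the filter, was lower in every 3-NP library. DCN was higher in every 3-NP library, at 0.868 and 0.711 FPKM in the controls against 1.21 to 1.26 (limma's adjusted p = 0.0959). PDGFRB and LUM overlapped between the groups, with higher means in 3-NP cells. The sum of 5 epithelial markers was 401 and 483 FPKM in the controls against 46.4 to 106, and the sums of leukocyte and endothelial markers stayed at or below 0.454 FPKM. Nearly all of the epithelial sum in the controls was KRT18, at 382 and 460 FPKM against 33.7 to 58.5 in 3-NP cells, while its partner keratin KRT8 was at 17.7 and 21.9 against 12.4, 35.1 and 46.4 (adjusted p = 0.473), and EPCAM, CDH1 and KRT19 were under the filter. The share of reads from mitochondrial rRNA was 0.639% and 0.734% in control and 1.04% to 1.497% in 3-NP libraries. These shifts run alongside every difference between the groups given here, and their part in the results was not tested. In bulk RNA a smaller share of cells of some kind and less RNA per cell cannot be told apart.

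Of the 9 genes, PC and IDH2 rose, PCK2 and ME1 fell, and GLUD1, GOT1, GOT2, ME2 and IDH1 did not pass the test (limma on log2(FPKM + 1), adjusted p under 0.05 over all genes tested). In the same comparison 40.8% of all genes tested were called, 15.5% higher and 25.2% lower, so 4 called genes of 9 (44.4%) are near the share found among all genes. Levels of the groups did not overlap in 7 of the 9, which are 5 that were higher in 3-NP cells and the pair that was lower, and 64.2% of all genes tested showed such a gap, 25.8% with 3-NP cells higher and 38.4% with them lower. The median log2 change was 0.09 over the 9 genes and −0.11 over all genes tested. PC was the 1 member called with a change of at least 2-fold. All 9 values per library are in the plot of levels, and fitted changes with their intervals are in the plot of changes.

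**Figure D1:**
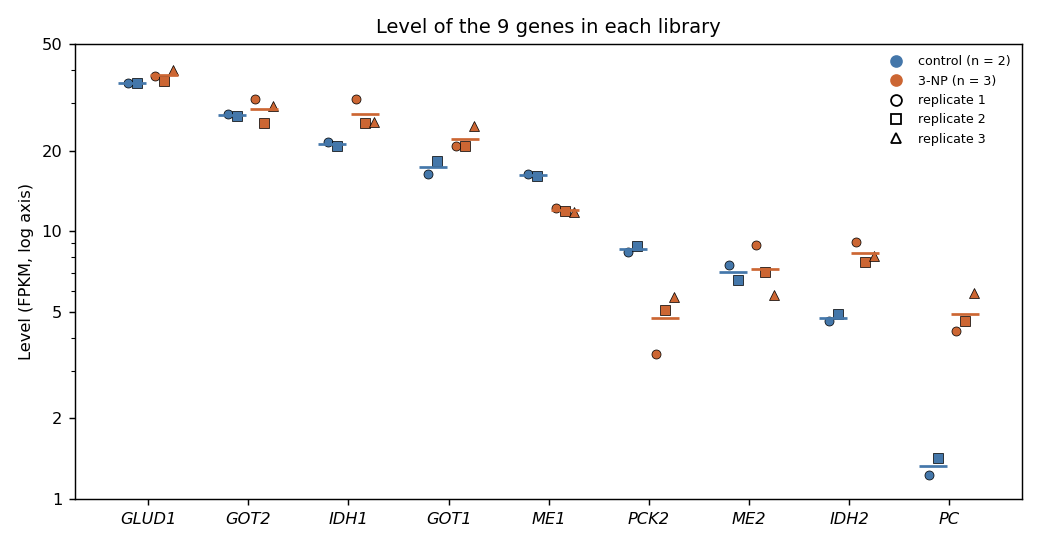
Level of each gene in each library in FPKM on a log axis, with genes ordered by their control mean, points for libraries and bars for group means. PC lies at 1.23 and 1.42 FPKM in the controls and at 4.25 to 5.86 in 3-NP cells, while GLUD1, at 35.6 to 40.1 FPKM, is the highest of the 9 in every library.

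**Figure D2:**
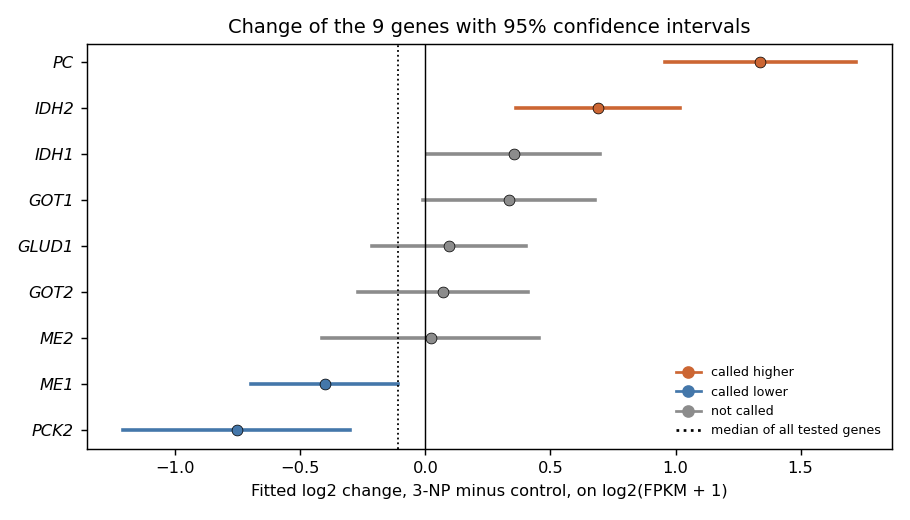
Fitted log2 change of each gene, 3-NP minus control, on log2(FPKM + 1), with bars for 95% confidence intervals, colours for the call and a dotted line at the median of all genes tested (−0.11). PC and PCK2 lie at the ends, at 1.34 and −0.75.

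PC, the biotin-dependent mitochondrial carboxylase that makes oxaloacetate, had the lowest control level of the 9 and the largest fitted change. It lies on chromosome 11 at positions 66848233 to 66958376 (GRCh38, minus strand). Its level was 1.23 and 1.42 FPKM in the control libraries and 4.25, 4.63 and 5.86 FPKM in the 3-NP libraries. Every 3-NP library lay above both controls, and the means, 1.33 ± 0.132 (SD, n = 2) and 4.91 ± 0.840 FPKM (SD, n = 3), differed by a ratio of 3.71. The log2 change was 1.34 ± 0.16 (SE), with limma's adjusted p = 0.00127, and the call held under all 14 alternatives tried, with adjusted p from 0.000379 to 0.0167. The values rest on 137 and 150 reads in the controls and 476 to 654 in 3-NP cells. The lowest of these, 137 reads, has an exact Poisson interval of 115 to 162 reads (95%, counting error only). LRFN4, an adhesion gene on the opposite strand, shares 621 exon bases with PC, 10.5% of PC's exon length, and the strand setting of the counting is not given in the sources used here. LRFN4 was at 4.71 and 7.73 FPKM in the controls and at 2.57 to 3.36 in 3-NP cells, which is the opposite direction.

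Pyruvate can also enter the cycle as acetyl-CoA through pyruvate dehydrogenase. Transcripts of its PDHA1 subunit were at 13.5 and 14.6 FPKM in the controls and at 11.6 to 13.8 in 3-NP cells (adjusted p = 0.492). The ratio of PC to PDHA1 within a library, chosen after the values were seen and not tested, was 0.0912 and 0.0970 in the controls against 0.328, 0.398 and 0.423 in the 3-NP libraries. PC thus remained below PDHA1 in every library, and by less in 3-NP cells.

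PCK2, the mitochondrial enzyme that turns oxaloacetate into phosphoenolpyruvate, had the largest fall of the 9. It lies on chromosome 14 at positions 24094053 to 24110598. Its level was 8.33 and 8.77 FPKM in the controls against 3.46, 5.07 and 5.69 FPKM in 3-NP cells, with 3-NP replicate 1 the lowest and no overlap between the groups. The log2 change was −0.75 ± 0.19 (SE), with limma's adjusted p = 0.019. The call was lost without control replicate 1 (adjusted p = 0.0888) or control replicate 2 (0.102), and without a low-value filter (0.0683). The cytosolic form PCK1 was under the filter, at 0 in both controls and at 0.0466 to 0.142 FPKM in 3-NP cells. The ratio of PC to PCK2, also chosen after the values were seen, was 0.148 and 0.162 in the controls and 0.914 to 1.23 in 3-NP cells. PC and PCK2 were thus at similar levels in 3-NP cells, whereas PCK2 was the higher of the pair in both controls.

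The malic enzymes turn malate into pyruvate, ME1 in the cytosol with NADP and ME2 in mitochondria. ME1 (chromosome 6, positions 83210389 to 83431071) was at 16.3 and 16.02 FPKM in the controls against 12.2, 11.9 and 11.8 FPKM in 3-NP cells. The groups did not overlap, and values within each lay close together. The log2 change of ME1 was −0.40 ± 0.13 (SE), with limma's adjusted p = 0.038. This call was lost without control replicate 1 (adjusted p = 0.201) or 2 (0.166), without 3-NP replicate 2 (0.0998) or 3 (0.0973), after quantile normalization (0.0764), median-of-ratios scaling (0.137) or removal of the length trend (0.1005), with voom (0.0504) and with the replicate block (0.152). ME2 (chromosome 18, positions 50878734 to 50954257) was at 7.46 and 6.58 FPKM in the controls against 8.86, 7.03 and 5.77 FPKM in 3-NP cells, so that the 3-NP libraries lay on both sides of the controls. Its log2 change was 0.02, with an interval of −0.41 to 0.45 (adjusted p = 0.937). The mitochondrial relative ME3 was at 8.54 and 11.9 FPKM in the controls and at 8.17 to 9.96 in 3-NP cells (adjusted p = 0.439).

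Among the enzymes that join glutamate and 2-oxoglutarate, GLUD1 was the most abundant of the 9 genes. GLUD1 (chromosome 10, positions 87050486 to 87094866), which releases ammonia from glutamate, was at 35.6 and 35.7 FPKM in the controls against 37.8, 36.4 and 40.1 FPKM in 3-NP cells. The groups did not overlap, but the log2 change was only 0.09, with an interval of −0.21 to 0.40 (adjusted p = 0.59). Its near-identical copy GLUD2 was at 0.0675 to 0.194 FPKM, and the pseudogene GLUD1P3 at 0.465 to 1.76 FPKM. Reads of GLUD1 may be shared with both, and 464 of its exon bases overlap SHLD2 on the other strand.

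GOT1 and GOT2 exchange an amino group between aspartate and 2-oxoglutarate, GOT1 in the cytosol and GOT2 in mitochondria, and form part of the malate-aspartate shuttle. GOT1 (chromosome 10, positions 99396870 to 99431569) was at 16.3 and 18.2 FPKM in the controls against 20.7, 20.8 and 24.8 FPKM in 3-NP cells. The groups did not overlap, yet with a log2 change of 0.33 ± 0.15 (SE) GOT1 missed the threshold (adjusted p = 0.106). It passed after removal of the length trend (0.0324), which also recentres each library. GOT2 (chromosome 16, positions 58707131 to 58734357) was at 27.4 and 26.9 FPKM in the controls against 31.2, 25.3 and 29.4 FPKM in 3-NP cells, which overlap. Its log2 change was 0.07, with an interval of −0.27 to 0.41 (adjusted p = 0.72).

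IDH1, in the cytosol and peroxisomes, and IDH2, in mitochondria, make NADPH as they turn isocitrate into 2-oxoglutarate, and can run in reverse. IDH2 (chromosome 15, positions 90083045 to 90102504) was at 4.60 and 4.90 FPKM in the controls against 9.15, 7.66 and 8.10 FPKM in 3-NP cells, where all 3 lay well above both controls. Its ratio of means was 1.75 and its log2 change 0.69 ± 0.14 (SE), with limma's adjusted p = 0.00765. The adjusted p was 0.0708 with control replicate 1 left out and 0.0505 with control replicate 2 left out, and the other 12 alternatives kept the call. IDH1 (chromosome 2, positions 208236227 to 208266074) was at 21.4 and 20.7 FPKM in the controls against 31.1, 25.3 and 25.6 FPKM in 3-NP cells. Its groups did not overlap, but a log2 change of 0.35 ± 0.15 (SE) missed the threshold (adjusted p = 0.0943, and 0.0323 after removal of the length trend). Its antisense neighbour IDH1-AS1, with 94 exon bases in common, was at 0.0814 and 0.514 FPKM in the controls and at 0.649 to 1.46 in 3-NP cells.

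**Figure D3:**
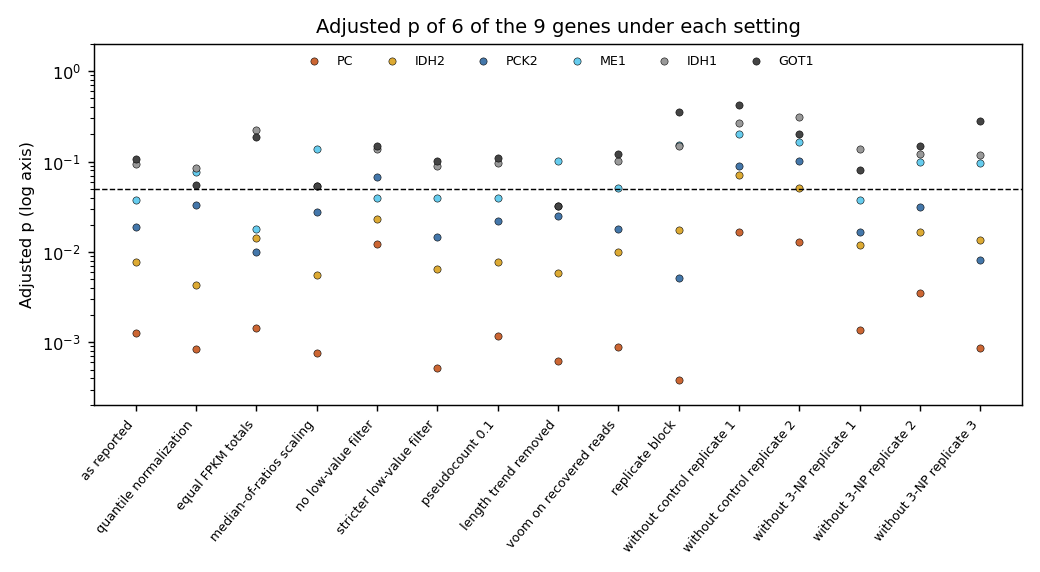
Adjusted p on a log axis for the 4 called genes and for IDH1 and GOT1 under each processing setting, with a dashed line at 0.05. PC stays below the line throughout (at most 0.0167), while PCK2, IDH2 and ME1 cross it when either control library is left out.

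Where a mitochondrial and a cytosolic form exist, their ratio within a library does not depend on how that library was scaled. The ratio IDH2/IDH1 was 0.215 and 0.236 in the controls against 0.294, 0.303 and 0.316 in 3-NP cells, a gap with no overlap and a difference of 0.43 on the log2 scale. The ratio ME2/ME1 was 0.457 and 0.411 in the controls against 0.724, 0.591 and 0.489 in 3-NP cells, also without overlap, a difference of 0.45. Mitochondrial forms thus made up more of both pairs in every 3-NP library. The ratio GOT2/GOT1 was 1.67 and 1.47 in the controls against 1.51, 1.22 and 1.18 in 3-NP cells, which overlap, a difference of −0.28. In 2-sided exact permutation tests of the 3 ratios p was 0.2 for IDH2/IDH1 and ME2/ME1 and 0.4 for GOT2/GOT1 (0.3, 0.3 and 0.4 adjusted over the 3). The smallest p that 2 against 3 libraries can give is 0.2, so these tests could not have passed 0.05. The level of ME2 is divided by an exon length of 16243 bases in GENCODE 29, against 3371 for ME1. That division sets the size of ME2/ME1 but cancels from its difference between groups. A trend with length that differs between libraries would not cancel. Removing it moved the log2 change of ME2 from 0.02 to 0.29 and that of ME1 from −0.40 to −0.31. It moved IDH2 from 0.69 to 0.76 and IDH1 from 0.35 to 0.49. The ratios were not fitted under that setting.

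**Figure D4:**
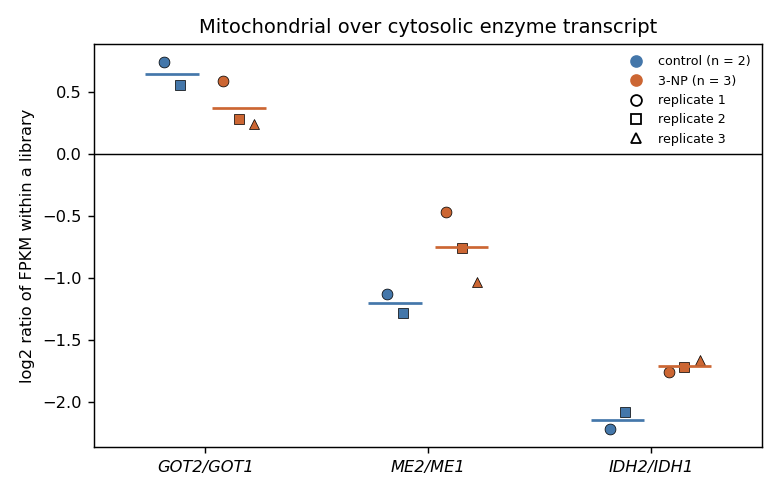
Log2 ratio of the mitochondrial to the cytosolic transcript within each library, as points, with bars for group means. All 3 3-NP libraries lie above both controls for ME2/ME1 and IDH2/IDH1, and the groups overlap for GOT2/GOT1.

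The order of levels in control cells was GLUD1, GOT2, IDH1, GOT1, ME1, PCK2, ME2, IDH2 and PC, from 35.6 down to 1.33 FPKM as means. No neighbours in that order had overlapping ranges, though GOT1 at its lowest (16.34) and ME1 at its highest (16.31) all but met. In 3-NP cells the order was GLUD1, GOT2, IDH1, GOT1, ME1, IDH2, ME2, PC and PCK2, from 38.1 to 4.74 FPKM. There the ranges overlapped between GOT2 and IDH1, and between each gene and the next from IDH2 down to PCK2. The summed level of the 9 genes was 139 FPKM in both controls and 159, 144 and 157 FPKM in 3-NP cells. Of that sum PC made up 0.889% and 1.02% in the controls and 2.68% to 3.73% in 3-NP cells, ME1 11.8% and 11.5% against 7.52% to 8.25%, and PCK2 6.002% and 6.297% against 2.18% to 3.62%. GLUD1 held 25.7% and 25.6% in the controls and 23.8% to 25.5% in 3-NP cells.

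By root-mean-square difference of log2(FPKM + 1), centred on the control mean, over the 5 libraries, the protein-coding genes most like PC were ARRB2, a beta-arrestin (0.035), TMEM189 (0.047) and the heme-degrading oxygenase HMOX1 (0.057). ARRB2 was at 1.88 and 2.03 FPKM in the controls against 5.92, 6.25 and 7.46 in 3-NP cells. HMOX1 was at 48.4 and 58.1 FPKM against 124, 137 and 158, a smaller ratio than that of PC. Adding 1 to each level shrinks the changes of low genes, so likeness on this scale is not likeness of ratios. Most like PCK2 were the centromere factor OIP5 (0.023), the nucleosome-binding HMGN4 (0.026) and the co-chaperone DNAJC7 (0.044). OIP5 was low, at 1.47 and 1.68 FPKM in the controls against 0.214, 0.607 and 0.773 in 3-NP cells, a larger fall in ratio than that of PCK2. HMGN4 was at 33.9 and 34.0 FPKM in the controls against 15.1, 21.5 and 24.0 in 3-NP cells, with 3-NP replicate 1 the lowest, as for PCK2.

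Several of these genes are known targets of stress and metabolic transcription factors, so promoter sequence was searched for the letters such factors bind. RefSeq windows (GRCh38.p14) were found for all 9 genes, 12 starts in all, and the 250 bases before each start were searched on both strands for 10 motifs. These were TGACNNNGC of NRF2 with MAF, TGATGNAA of ATF4 with C/EBP, AAGGTCA of the ERR receptors, a longer motif of NRF1 and a shorter form of it, the E-box CACGTG of MYC, TCACNCCAC of SREBP, TGACGTCA of CREB, TGANTCA of AP-1 and ACGTGC of HIF. The 30-base windows below show every NRF2, ATF4 and NRF1 match and the AP-1 match of PC, as the gene with the largest change. They run 5′ to 3′ on the gene's strand with the match in capitals. The GOT1 match is on the other strand and so reads in reverse complement. The PC match stands before its RefSeq start numbered 3, inside the positions of the gene given above, and the IDH1 match before its start numbered 2. No other window of PC holds any of the 10 motifs.
ME1, NRF2 motif, chr6:83431169-83431198, minus strand: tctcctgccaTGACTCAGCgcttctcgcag
IDH1, NRF2 motif, chr2:208255195-208255224, minus strand: cccctctcgcTGACTCCGCccatcccacgg
GOT2, NRF2 motif, chr16:58734353-58734382, minus strand: gggatcgctgTGACGTGGCtcgggcccagc
GOT1, ATF4 motif, chr10:99430804-99430833, minus strand: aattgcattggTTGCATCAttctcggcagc
GLUD1, NRF1 motif, chr10:87095032-87095061, minus strand: gagcccgcccGCGCCTGCGCgcccccgacg
PC, AP-1 motif, chr11:66906147-66906176, minus strand: cttaaacctccTGATTCAtcttccgttgct
The NRF2 letters stand in 3 of the 12 windows and in 10.9% of all 35116 RefSeq windows of that length, and the ATF4 letters in 1 of the 12 and in 3.14% of all. The longer NRF1 letters stand in 1 of the 12 and in 5.07% of all, and AP-1 letters in 2 of the 12 (PC, and ME1, where they overlap the NRF2 match) and in 6.57%. HIF letters stand in 1 of the 12, at a start of IDH1, and in 5.83% of all. The ERR, MYC, SREBP and CREB letters and the shorter NRF1 form, found in 3.44%, 6.34%, 0.883%, 1.65% and 2.63% of all windows, stand in no window of the 9 genes, and those of PCK2, IDH2 and ME2 hold none of the 10 motifs. ME1 and IDH1, which share the NRF2 letters, had log2 changes of −0.40 and 0.35. A match is a run of letters, and no binding was measured.

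Around the 9 genes, 103 genes in 7 lists of neighbouring steps were read from the same fit, and 89 passed the filter. Of these 17 rose and 17 fell, 38.2% against the 40.8% called among all genes tested, where 15.5% rose and 25.2% fell. The counts for each list below stand beside those shares. Of the 34 called, 10 kept the call under every alternative in which they were tested. They include SLC7A5, ABAT, SLC38A1, ADSL, BCAT1, SLC25A12, SLC25A13, SLC5A6 and MTHFD1L, where SLC5A6 was under the filter with either control left out. Leaving out control replicate 1 ended 23 of the 34 calls and control replicate 2 ended 18. Leaving out 3-NP replicate 1, 2 or 3 ended 0, 9 and 5 of them.

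**Figure D5:**
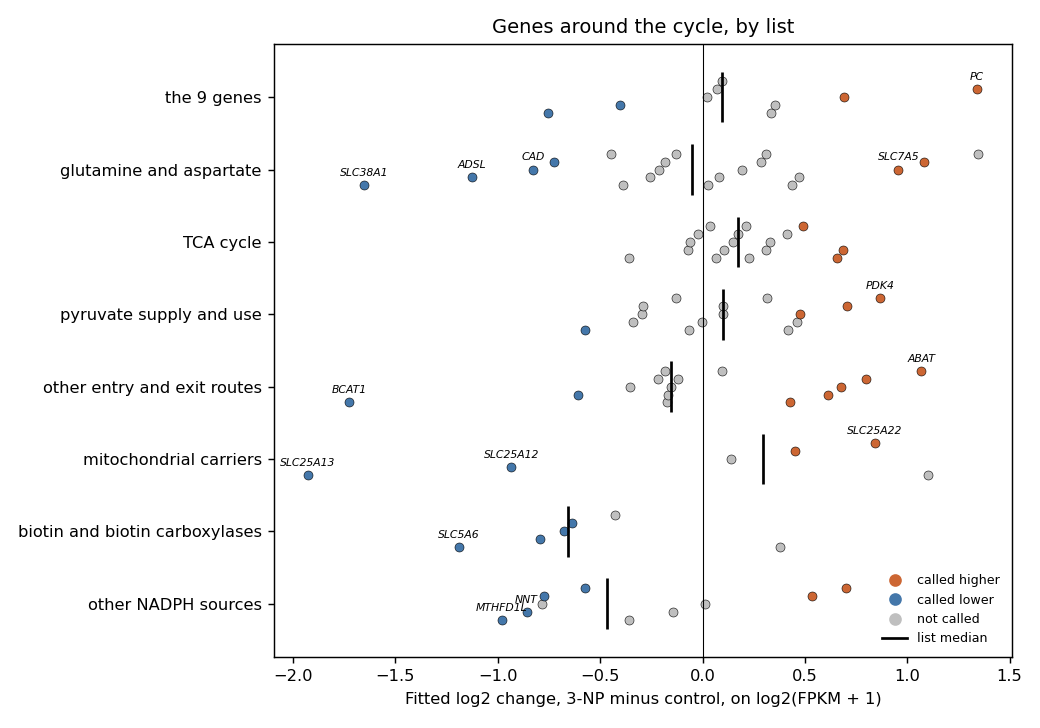
Fitted log2 change of each tested gene, 3-NP minus control, on log2(FPKM + 1), by list, with colours for the call, black bars for list medians and names for most called genes with a change of at least 0.80 in size. ABAT (1.07) and PC (1.34) lie to the right and the carriers SLC25A12 (−0.93) and SLC25A13 (−1.93) to the left.

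Upstream of GLUD1, the transporters of glutamine did not move together. Glutamine synthetase GLUL, which makes glutamine from glutamate, was at 5.71 and 5.56 FPKM in the controls and at 4.34 to 4.71 in 3-NP cells (adjusted p = 0.155). The glutamine importer SLC1A5 had a log2 change of −0.13 (adjusted p = 0.528), whereas SLC38A1, another importer, fell from 25.5 and 16.7 to 6.15, 8.22 and 3.95 FPKM (log2 change −1.65, adjusted p = 0.00438). SLC7A5, which exports glutamine in exchange for large neutral amino acids, rose (0.96, adjusted p = 0.00358), while its partner chain SLC3A2 fell (−0.73, adjusted p = 0.0325).

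Downstream, 2 enzymes of nucleotide synthesis, CAD and ADSL, fell. CAD, which starts pyrimidine synthesis, had a log2 change of −0.83 (adjusted p = 0.00518), and ADSL, which acts in purine synthesis, one of −1.13 (adjusted p = 0.00281). PPAT, also of purine synthesis, was not called (0.31, limma's adjusted p = 0.258). The mitochondrial alanine aminotransferase GPT2 was at 7.20 and 7.53 FPKM in the controls and at 6.71 to 8.14 in 3-NP cells (adjusted p = 0.889). Of 20 genes of glutamine and aspartate metabolism tested, 2 rose, 4 fell and 14 were not called (median −0.05). CAD lost the call without control replicate 1 (adjusted p = 0.0504), and SLC3A2 without control replicate 1 (0.0688) or 2 (0.197), without 3-NP replicate 2 (0.0619), without a low-value filter (0.104) and after median-of-ratios scaling (0.0550) or removal of the length trend (0.0534).

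The carriers that link the mitochondrial and cytosolic forms of these enzymes moved in both directions. SLC25A13, an aspartate-glutamate carrier, fell from 12.7 and 11.7 FPKM in the controls to 2.08, 2.70 and 2.62 FPKM (log2 change −1.93 ± 0.15 SE, adjusted p = 0.000318). Its relative SLC25A12 fell from 7.08 and 6.64 to 2.96, 3.23 and 3.15 FPKM (−0.93, adjusted p = 0.00217). These carriers bring glutamate into mitochondria in exchange for the aspartate that GOT2 makes. No other tested part of the malate-aspartate shuttle was called lower. Cytosolic malate dehydrogenase MDH1 rose (0.43, adjusted p = 0.0378), and GOT1, GOT2, MDH2 and the oxoglutarate carrier SLC25A11 were not called. The glutamate carrier SLC25A22 was at 3.37 and 3.61 FPKM in the controls against 6.66, 5.84 and 8.97 in 3-NP cells (0.84, adjusted p = 0.0104), and UCP2, which exports 4-carbon intermediates, rose at a low level (0.45, adjusted p = 0.0402). Of 6 carriers tested 2 rose and 2 fell (median 0.30). Without control replicate 1 or 2 the adjusted p was 0.0751 and 0.056 for SLC25A22, 0.323 and 0.133 for UCP2 and 0.22 and 0.144 for MDH1, and without 3-NP replicate 2 or 3 it was 0.0604 and 0.0734 for UCP2 and 0.0979 and 0.107 for MDH1. Equal FPKM totals and the replicate block also ended the calls of UCP2 (0.0523 and 0.140) and MDH1 (0.0642 and 0.142), and the absence of a filter that of UCP2 (0.102).

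Next to PC, both subunits of the carrier for its substrate pyruvate rose, and the transporter for its cofactor biotin fell. MPC1, a subunit of the mitochondrial pyruvate carrier, was at 8.76 and 8.16 FPKM in the controls against 15.3, 14.4 and 13.7 FPKM in 3-NP cells (log2 change 0.71, adjusted p = 0.0058), and its partner MPC2 rose by less (0.48, adjusted p = 0.0457). PDK4, a kinase that switches pyruvate dehydrogenase off, rose from 0.944 and 0.720 FPKM to 1.52, 2.99 and 2.69 (0.87, adjusted p = 0.0175). LDHA, which turns pyruvate into lactate and has pseudogenes that may share its reads, fell (−0.58, adjusted p = 0.0246). Of 15 genes of pyruvate supply and use 3 rose and 1 fell (median 0.10). Without control replicate 1 or 2 the adjusted p was 0.0751 and 0.113 for PDK4, 0.283 and 0.0953 for MPC2 and 0.127 and 0.128 for LDHA, that of MPC1 was 0.0589 without control replicate 2, and without 3-NP replicate 2 LDHA (0.0505) and MPC2 (0.0721) were lost, as was MPC2 without 3-NP replicate 3 (0.120). Other settings that ended calls were the absence of a filter for PDK4 (0.0772), MPC2 (0.0933) and LDHA (0.0674), equal totals (0.0658), voom (0.0585) and the replicate block (0.170) for MPC2, and median-of-ratios scaling (0.0597) and the length trend (0.0532) for LDHA.

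SLC5A6, the vitamin transporter that takes up biotin, fell from 2.75 and 3.35 FPKM to 0.727, 0.746 and 0.834 FPKM (log2 change −1.19, adjusted p = 0.00122). Of 6 genes of biotin supply and the other biotin carboxylases tested, 4 fell and none rose (median −0.66), where 25.2% of all genes tested fell and 15.5% rose. By limma 1 gene of this list, biotinidase BTD, was higher at an unadjusted p under 0.05. The count called higher was 0 with voom and 1 after quantile normalization, median-of-ratios scaling or removal of the length trend, and the count called lower was 0 without control replicate 1 and 2 without control replicate 2. Acetyl-CoA carboxylase ACACA (−0.68, adjusted p = 0.0258) and both chains of methylcrotonyl-CoA carboxylase, MCCC1 (−0.64, adjusted p = 0.0107) and MCCC2 (−0.79, adjusted p = 0.00434), fell. PC and PCCA, the biotin-bearing chain of propionyl-CoA carboxylase, rose (0.67 for PCCA, adjusted p = 0.00687). Biotin carboxylases thus did not share a direction. Leaving out control replicate 1 gave an adjusted p of 0.204 for ACACA, 0.123 for MCCC1, 0.0507 for MCCC2 and 0.065 for PCCA, without control replicate 2 it was 0.0502 for MCCC1 and 0.065 for PCCA, and without 3-NP replicate 2 it was 0.0571 for ACACA. Quantile normalization (0.0532) and the absence of a filter (0.0832) also ended the call of ACACA.

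Other ways into and out of the cycle gave 5 rises and 2 falls among 15 genes tested (median −0.15). ABAT, which breaks down GABA towards succinate, was at 1.34 and 1.13 FPKM in the controls against 4.09, 3.51 and 3.44 in 3-NP cells (log2 change 1.07, adjusted p = 0.00181). ALDH5A1, the next enzyme of that route, fell (−0.61, adjusted p = 0.0246). BCAT1, which moves amino groups from branched-chain amino acids to 2-oxoglutarate, fell from 57.7 and 40.1 FPKM to 13.2, 19.6 and 10.2 (−1.73, adjusted p = 0.00327). The cytosolic aconitase ACO1, which supplies IDH1 with isocitrate, rose (0.80, adjusted p = 0.0131), as did MCEE, which acts between propionyl-CoA and succinyl-CoA (0.61, adjusted p = 0.0193). Without control replicate 1 or 2 the adjusted p was 0.225 and 0.0905 for ALDH5A1, 0.0558 and 0.095 for ACO1 and 0.123 and 0.0869 for MCEE, and without 3-NP replicate 2 it was 0.0582 for ALDH5A1 and 0.0577 for MCEE. Quantile normalization (0.0740) and the absence of a filter (0.0845) ended the call of ALDH5A1, and the latter also that of MCEE (0.0534).

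Within the cycle itself the 3 called of 17 genes tested were all subunits of succinate dehydrogenase, SDHA, SDHB and SDHD (median of the 17 0.17). Of all genes tested 15.5% were called higher and 25.2% lower. By limma 0 of the 17 were lower, also at an unadjusted p under 0.05, and voom called 0 lower. With equal FPKM totals 1 gene was called lower, and 1 was lower at an unadjusted p after quantile normalization, with the replicate block, without control replicate 1 and without 3-NP replicate 3. The count called higher was 5 after quantile normalization, median-of-ratios scaling or removal of the length trend. The levels of SDHA were 13.5 and 14.5 FPKM in the controls against 21.8, 20.6 and 27.7 in 3-NP cells, those of SDHB 27.4 and 32.7 against 41.0, 42.2 and 44.5, and those of SDHD 15.6 and 15.4 against 23.9, 23.6 and 27.9. SDHC, at 12.5 and 13.0 against 11.3 to 13.4 FPKM, was not called (adjusted p = 0.716). The NAD-linked isocitrate dehydrogenase subunits IDH3A, IDH3B and IDH3G, the counterparts of IDH2 in the cycle, had log2 changes of 0.33, −0.36 and 0.04 (adjusted p = 0.106, 0.13 and 0.859). When control replicate 1 or 2 was left out none of the SDH calls held, with adjusted p of 0.106 and 0.0681 for SDHA, 0.237 and 0.0702 for SDHB and 0.0706 and 0.0697 for SDHD. SDHB also had 0.0698 and 0.0727 without 3-NP replicate 2 or 3, 0.0853 with the replicate block and 0.0512 without a filter, and SDHA and SDHD have pseudogenes that may share their reads.

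NADPH, which ME1, IDH1 and IDH2 make, also comes from the pentose phosphate pathway. Its enzyme PGD was at 22.0 and 24.9 FPKM in the controls against 35.1, 31.7 and 36.6 FPKM in 3-NP cells (log2 change 0.54, adjusted p = 0.021). The 4 genes that fell belong to mitochondrial and folate routes, and MTHFD1L among them makes no NADPH itself. The transhydrogenase NNT changed by −0.86 (adjusted p = 0.00901), the folate enzymes MTHFD1 and MTHFD1L by −0.77 and −0.98 (adjusted p = 0.00472 and 0.00229), and the mitochondrial NAD kinase NADK2 by −0.57 (adjusted p = 0.0266). IDH2 thus rose while NNT, another source of NADPH in mitochondria, fell. The mitochondrial folate enzymes MTHFD2 and ALDH1L2 were not called (−0.14 and −0.78, limma's adjusted p = 0.544 and 0.0562). Of 10 genes of this list tested 2 rose and 4 fell (median −0.47). With control replicate 1 left out the adjusted p was 0.172 for PGD, 0.0853 for NNT, 0.0553 for MTHFD1 and 0.174 for NADK2, without control replicate 2 it was 0.0738 for PGD and 0.0902 for NADK2, and without 3-NP replicate 3 it was 0.055 for PGD. The replicate block ended the call of PGD (0.0719), and quantile normalization (0.0627), the length trend (0.0563) and the absence of a filter (0.0704) that of NADK2.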

How the data were processed

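RNA extracted with TRIzol from 2 control and 3 3-NP samples went into stranded mRNA libraries, per the labels' protocols. Tools named in the submitters' processing notes are bcl2fastq 2.17, Trimmomatic 0.39 and HISAT2 2.1, with build GRCh38. For the read counter, its annotation and its strand setting, the sources used here name nothing. The values deposited by the authors carry no unit and were taken to be FPKM. They have decimals and unequal totals (262081 to 299515), and with GENCODE 29 exon lengths 93.1% to 93.3% of those above 0 come to whole reads, within 0.05, which gave the depths. Reads came out whole for 7 members but not for GOT1 and ME2, whose reads are not printed. Of 30631 genes 30390 matched GENCODE 29.

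Tests used limma 3.58.1 under R 4.3.3, with its variance trend, on log2(FPKM + 1) of the deposited values. Genes needed 1 FPKM in 2 or more libraries, group was the only term, and p was adjusted by Benjamini-Hochberg over all 11858 genes at 0.05. Changes on this scale understate those of low genes. The fit was tested on simulated data with 200 changed genes and a dispersion of 0.02, which gave 180 true and 13 false calls over 11380 genes. It recovered 85.4% of genes raised 2-fold, 88.9% of those lowered to 0.5-fold and 100% of those changed 4-fold. In the data 40.8% of genes were called, many more than were changed there, so the simulation does not give the error rate of these calls. Pair ratios were tested by exact permutation (scipy 1.17.1). The 14 alternatives were other scalings, filters and pseudocounts, removal of the length trend, voom on recovered reads, a replicate block, and fits that leave out a library in turn.

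The members, lists, markers, rules and motifs were chosen with earlier results of these data known. Named were all 9 members, the 3 called genes with the smallest p of each list and every called gene of a direction with 5 or fewer, SLC1A5, GLUL, GPT2 and the SDH subunits, and the 3 genes most like PC and PCK2. Some genes that these rules name are counted but not reported here. Other genes named were chosen after their values were seen.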

Additional observations from a re-analysis of the deposited data

How the results depend on the processing

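Across the 14 alternatives PC kept its direction and its call. The count of members called higher, 2 as reported, was 4 with the length trend removed, where GOT1 (0.43) and IDH1 (0.49) passed as log2 changes, and 1 to 2 with a library left out. The count called lower, 2 as reported, was 1 after quantile normalization, median-of-ratios scaling, no filter, the length trend, voom and the replicate block, and 0 to 2 with a library left out; without either control limma called 0 lower, with 1 at an unadjusted p under 0.05. The log2 change of PCK2 was −0.75 without a filter and −0.87 to −0.58 with a library left out, and that of IDH2 was 0.63 to 0.74 with a library left out. That of ME1 was −0.33 after quantile normalization, −0.29 after median-of-ratios scaling, −0.31 with the length trend removed, −0.43 with voom, −0.39 with the block and −0.42 to −0.39 with a library left out. Signs turned for genes that were not called: with equal totals for GLUD1 (−0.0087), GOT2 (−0.031), ME2 (−0.071) and GPT2 (−0.065), with the block for GPT2 (−0.022), after quantile normalization, median-of-ratios scaling and the length trend for SDHC (0.012, 0.047 and 0.18), and with a library left out for ME2 (−0.12 to 0.15) and GPT2 (−0.022 to 0.10). The pair ratio differences kept their direction in every fit with a library left out, the block or a pseudocount of 0.1. Over all genes 1842 were higher and 2991 lower (61.9% of calls lower), against 752 to 2147 and 1062 to 3107 with a library left out, the lowest without control replicate 1. The share lower was 52% after quantile normalization, 51.7% with median-of-ratios scaling and 49.6% with the length trend removed, and the median change over all genes moved from −0.11 to −0.010 and 0.004 under the last pair. With the replicate number as a block 1737 genes were higher and 2610 lower. No control shares the number of 3-NP replicate 3, so that library does not bear on the changes fitted with the block. They equal those without it (PC 1.23 and ME1 −0.39 in both), and the pair are not separate checks of size. Deviations from the group means correlated at 0.157 for replicate 1 and −0.352 for replicate 2. With the replicate numbers crossed, the values were 0.352 and −0.157. With 2 controls, their deviations are mirror images of each other, so these correlations are not separate evidence. They cannot tell whether libraries with the same replicate number share a culture or a batch. The causes of these changes were not tested, and 2 control libraries limit every call.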

Other observations

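Among the 89 neighbouring genes tested, 2 differed by at least 1 on log2(FPKM + 1) between the lowest and the highest 3-NP library, and in both 3-NP replicate 1 stood apart from the other 3-NP libraries. ASS1, which joins citrulline and aspartate in arginine synthesis, was at 3.88 and 4.03 FPKM in the controls, at 1.77 in 3-NP replicate 1 and at 21.5 and 31.0 in 3-NP replicates 2 and 3. The controls thus lay between the 3-NP libraries, and ASS1 did not pass the test (limma, adjusted p = 0.274). The citrate carrier SLC25A1 was at 32.5 and 37.9 FPKM in the controls, at 138 in 3-NP replicate 1 and at 53.3 and 60.6 in the other 3-NP libraries (limma, adjusted p = 0.0517). ATP-citrate lyase ACLY, which splits the citrate that SLC25A1 exports, was at 77.0 FPKM in 3-NP replicate 1 and at 43.1 and 44.6 in the others, against 67.1 and 56.6 in the controls (limma, adjusted p = 0.535). SLC25A1 and ACLY were thus both highest in 3-NP replicate 1, though for ACLY both controls lay above the other 3-NP libraries and for SLC25A1 below them. Asparagine synthetase ASNS, which uses aspartate and glutamine, was at 14.5 FPKM in 3-NP replicate 1 and at 23.9 and 28.0 in the others, against 14.1 and 16.2 in the controls (limma, adjusted p = 0.185). These genes were picked after their values were seen.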
